A study of Mus musculus with 4 samples.

Results

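Pericytes were examined in single-cell RNA-Seq libraries of dissociated mouse lung from young and aged animals, with and without mechanical ventilation. A barcode was counted as a pericyte when it held 200 to 7500 genes and at most 10% mitochondrial UMIs, had at least 3 of *Higd1b*, *Cox4i2*, *Vtn*, *Postn*, *Trpc6* and *Notch3* detected, had fewer than 3 of 7 contractile genes (*Myh11*, *Cnn1*, *Des*, *Hhip*, *Aspn*, *Lgr6*, *Actg2*) detected, and had no UMI of *Ptprc* or *Cdh5*, the immune and endothelial exclusion genes. A UMI (unique molecular identifier) stands for 1 captured RNA molecule. The members were thus chosen by their own UMI counts of these genes, which are described here and not taken as results. The rule found 287 pericytes among 11846 barcodes within the gene and mitochondrial limits and 15428 barcodes in all.

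All mice were wild-type C57BL/6 males, and each group was 1 library made from the left lungs of 3 pooled mice. A food-restricted diet is named in the labels of all 4 samples, whereas the study's methods describe it under the aging of mice to 22 months. Whether the young mice were restricted too is not clear from these, and if they were not, age and diet cannot be told apart. The young nonventilated group consisted of naive mice 2 to 3 months old. Young ventilated mice, of the same age, received 3 h of mechanical ventilation at a tidal volume of 20 mL/kg with a positive end-expiratory pressure of 0 cm H2O, under ketamine and medetomidine anesthesia with buprenorphine, arterial and venous lines, and pure oxygen as the inspired gas. The aged nonventilated and aged ventilated groups were 22 months old and were handled in the same respective ways. The volume per breath was capped, however, so that mice above the weight at which the cap was reached received less per body weight, and the aged mice were heavier than the young. Age and tidal volume per body weight therefore cannot be told apart in the ventilated groups. Anesthesia, surgery, oxygen and ventilation therefore cannot be told apart, and with 1 library a group no test between groups was possible. Values of the 4 libraries are given throughout in 1 order, the young libraries before the aged ones and the nonventilated before the ventilated one at each age.

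Pericytes are mural cells that share the basement membrane of capillaries with the endothelium and are recruited to it by PDGF-B acting on PDGFRβ. They exchange angiopoietin, Notch and TGF-β signals with endothelial cells, connect to them through gap junctions and N-cadherin contacts, and are known for supporting the capillary barrier, vessel tone and the perivascular matrix. In the lung they lie along the alveolar capillaries, next to fibroblasts and within reach of smooth muscle cells that share several of their genes.

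The 4 libraries held 41222284, 44404172, 45218176 and 40655452 UMIs. Pericytes numbered 80 of 2942, 87 of 3327, 67 of 3025 and 53 of 2552 kept barcodes. Their share was 2.72% (exact binomial 95% interval 2.16 to 3.37), 2.61% (2.10 to 3.22), 2.21% (1.72 to 2.80) and 2.08% (1.56 to 2.71), and each of these intervals overlapped the others. The share depends on which cells survived dissociation, freezing and thawing. All intervals given here cover counting error only, not differences between mice, libraries or cells. Pericytes contributed 459853, 539968, 453614 and 326103 UMIs, with a median of 6027, 6047, 5937 and 6591 UMIs and 2312, 2370, 2423 and 2701 genes per cell. No doublet caller was run. Barcodes with a UMI of *Ptprc* or *Cdh5* were left out instead, which removed 135 barcodes that met the other criteria, and the limit on contractile genes removed 104. Of the barcode sequences, 23 occurred in more than 1 library, and none of these was a pericyte.

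The 6 rule genes summed to 8055, 6656, 8706 and 8344 CPM (UMIs of a gene summed over the pericytes of a library, scaled to 1000000 UMIs of all their genes). The label was checked against 30 pericyte genes that the rule did not use. Of these, 21, 23, 20 and 21 reached 50 CPM. *Pdgfrb*, the PDGF receptor that defines mural cells, stood at 1174, 1082, 1093 and 1260.3 CPM, at least 43.3-fold above all other kept barcodes of the same library. *Adcy8*, an adenylyl cyclase, was present at 1759, 1506, 2374 and 2272 CPM, at least 93.4-fold above the other barcodes. *Agtr1a*, the angiotensin II receptor, was at least 80.6-fold above them, and *Cspg4*, which encodes NG2, measured 189, 194, 267 and 313 CPM. Markers often used in other organs were low. *Kcnj8* and *Abcc9*, the subunits of a vascular ATP-sensitive potassium channel, measured 28.3, 27.8, 30.9 and 33.7 CPM and 50.0, 57.4, 39.7 and 18.4 CPM, *Rgs5* gave 4, 3, 2 and 7 UMIs, and *Nrip2* gave none. Outside the rule genes and these 30 genes, *Tafa1*, a secreted chemokine-like peptide, and *Kcnq5*, a potassium channel subunit, were at least 98.1-fold and 76.9-fold above the other barcodes. Reaching 50 CPM does not show that a gene was particular to pericytes. *Foxf1* and *Mcam* reached it in each library, but in the lowest library were 0.94-fold and 1.98-fold the other barcodes. *Steap4* gave 0, 29, 2 and 0 UMIs, *Tbx18* gave 1, 0, 0 and 0, and *Itga7* gave 0, 1, 3 and 0. The label thus held for most of the list by level, with less separation for some genes and without the *Rgs5*-high profile of pericytes elsewhere.

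**Figure D1:**
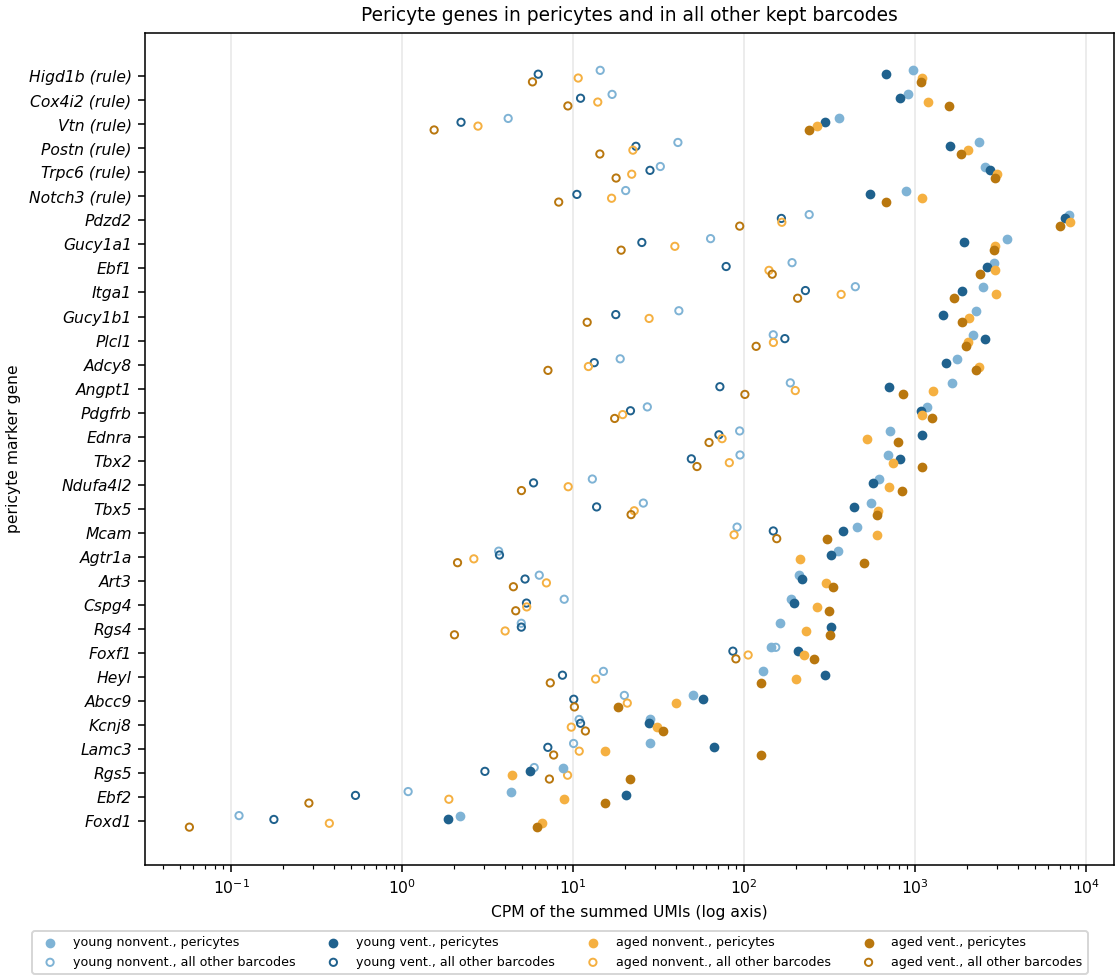
CPM of the 6 rule genes and of the independent pericyte genes (y axis) on a log axis, in the pericytes (filled circles) and in all other kept barcodes (open circles) of each library; young libraries are blue, aged libraries orange, and ventilated libraries the darker shade. *Pdgfrb* was at least 43.3-fold higher in pericytes in each library, whereas *Rgs5*, with 2 to 7 UMIs a library, was not separated.

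Genes of neighboring mesenchymal cells were present, and those of other lineages were lower. The smooth muscle list summed to 1801, 1387, 1865 and 1438 CPM, with *Mylk*, the myosin light chain kinase, as its most abundant gene and *Tnnt2* and *Map3k7cl* at 0 in each library. The alveolar fibroblast list summed to 1479, 1495, 1839 and 898 CPM, led by *Macf1*, a cytoskeletal linker. The adventitial fibroblast list summed to 415, 885, 545 and 951 CPM, of which *Gpx3* made up 341, 757, 425 and 926 CPM, while *Lum*, *Scara5* and *Serpinf1* were at 0 in each library. The 14 endothelial genes summed to 180, 187, 181 and 147 CPM, with *Tmem100* the most abundant, and the 12 epithelial genes to 233, 398, 289 and 248 CPM, of which *Scgb1a1*, a club cell secretory product, made up 169.6, 309, 181 and 138 CPM. *Scgb1a1* was 4835, 2958, 5792 and 2139.9 CPM in the other barcodes, and *Epcam* was at 0 in the first 3 libraries. The 16 immune genes summed to 139, 131, 72.7 and 301 CPM. The aged ventilated value was the highest, led by *S100a9*, a neutrophil gene, at 79.7 CPM, and *Cd3e*, *Ccl5* and *Nkg7* were at 0 in each of the libraries. The mesothelial list summed to 291, 130.0, 313 and 331 CPM, nearly all of it *Nkain4*, with *Wt1* and *Lrrn4* at 0. Contractile genes were common within the limit set by the rule: only 22 of the 287 pericytes had none of the 7, and *Myh11* and *Des* supplied most of their UMIs, whereas *Cnn1*, *Lgr6* and *Actg2* had none.

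A few barcodes stood apart. At the threshold, the 33 barcodes with 2 markers, which were left out, had 133 CPM of *Pdgfrb* and 3614 CPM of *Inmt*, an alveolar fibroblast gene. The 32 pericytes with 3 markers had 608 CPM of *Pdgfrb* and 278 CPM of *Inmt*, and the 148 with all 6 had 1277 and 18.6 CPM. A total of 12 pericytes (3, 6, 3 and 0 by library) carried at least 3 genes of the alveolar or the adventitial fibroblast list. Among them were the 2 deepest barcodes. One, in the young ventilated library, had 29265 UMIs (5.42% of that library's pericyte UMIs), 9 of 12 alveolar fibroblast genes and 818 *Mt1* UMIs. The other, in the aged nonventilated library, had 31395 UMIs (6.92%), 10 of 12 alveolar fibroblast genes and 201 *Mgp* UMIs. List counts after ventilation are therefore also given below without the pericytes carrying fibroblast genes, without barcodes of over 5000 genes, or without the cell holding most UMIs of the gene, where that changed them. These checks were added after the data had been seen, apart from the limit of 5000 genes.

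The first question was how pericyte transcripts differed after ventilation at each age. A gene was counted as having risen or fallen when its CPM differed at least 2-fold, the exact counting interval of the ratio left out 1, the mean of both libraries was at least 50 CPM, and 1 library had at least 20 UMIs. In young pericytes, 211 of 3738 measured genes rose (5.64%) and 133 fell (3.56%), 9.2% in either direction. In aged pericytes, 182 of 3769 rose (4.83%) and 176 fell (4.67%), 9.5% in either direction. With median-of-ratios scaling the aged counts were 132 and 218, and the young ones 211 and 138. A gene below 50 CPM in 1 library could be measured only by being higher in the other, in these totals as in the lists below, so list counts are descriptions and are also given for the members that reached 50 CPM in the library where a rise starts or a fall ends. The median log2 ratio over all measured genes was 0.01 in young and 0.08 in aged pericytes. Without the single cell that held most UMIs of each gene, 181 of the 211 young rises, 125 of the 133 young falls, 174 of the 182 aged rises and 157 of the 176 aged falls were still at least 2-fold.

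The responses at the 2 ages overlapped in part. Of the rises, 27 genes were shared, which is 12.8% of the young and 14.8% of the aged rises. The falls shared 28 genes, 21.1% of the young and 15.9% of the aged falls. In contrast, 21 genes moved in opposite directions, 17 of them upward in young and downward in aged pericytes. Across 3386 genes measured at both ages, the log2 ratios had a Pearson correlation of 0.22 and a Spearman correlation of 0.25. Genes are not independent replicates, so these are descriptions of the libraries. Of the 55 genes shared in direction, 26 rises and 26 falls kept at least 2-fold at both ages without the cell holding most UMIs.

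**Figure D2:**
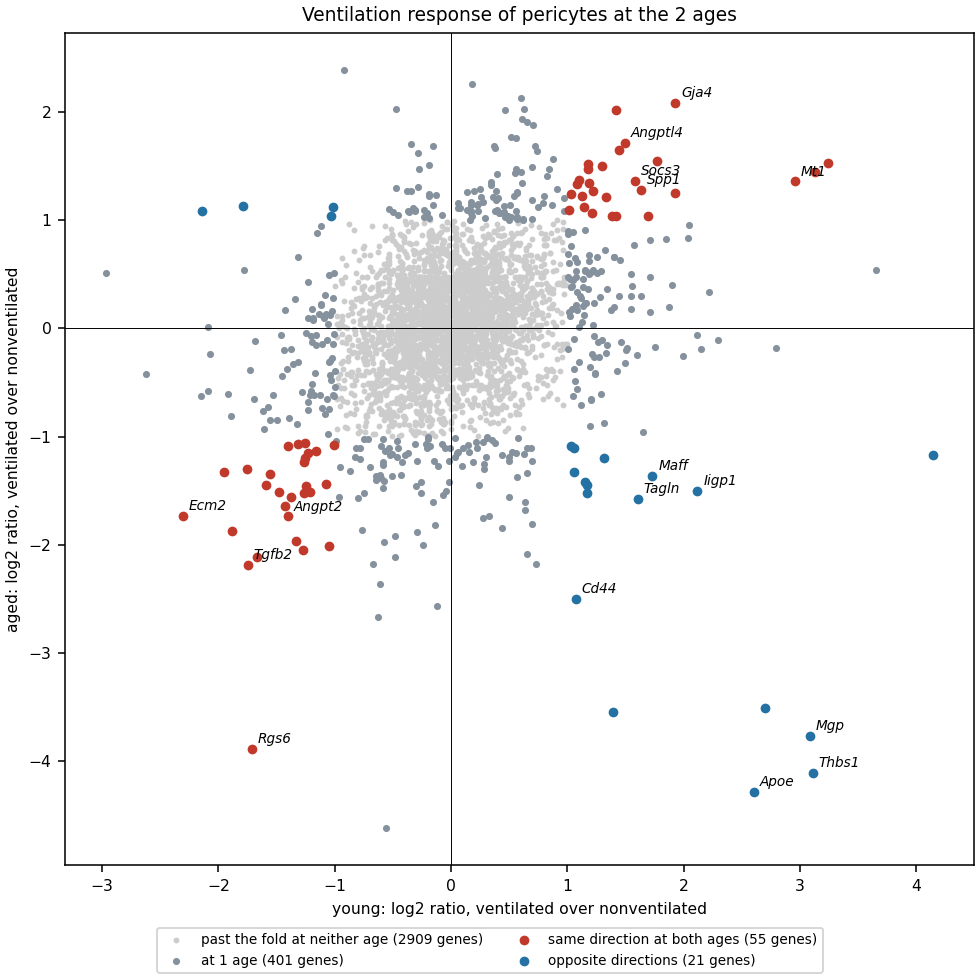
Log2 ratio of ventilated over nonventilated pericytes for 3386 genes, young on the x axis and aged on the y axis; each point is 1 gene. The 55 red genes moved the same way at both ages, with *Gja4* and *Rgs6* among the farthest out, and the 21 blue genes moved in opposite ways, with *Thbs1* and *Mgp* in the lower right.

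Among genes that rose at both ages, *Gja4* had one of the largest changes. It encodes connexin 37, a gap junction protein of arterioles and mural cells. Its level was 104, 404, 115 and 491 CPM, a 3.87-fold (2.82 to 5.40) rise in young and a 4.28-fold (3.11 to 5.97) rise in aged pericytes. Both ventilated libraries were above both nonventilated ones, and the Poisson intervals of the treatments did not overlap. The share of pericytes with a *Gja4* UMI was 36.2%, 70.1%, 37.3% and 75.5%. After thinning to 2000 UMIs per cell, which left out cells with fewer, it was 11.1%, 41.1%, 19.3% and 51.1% of 63, 73, 57 and 45 pericytes. In immune cells, where the gene should be absent, the share was 2.62%, 1.75%, 4.45% and 2.82% before and 0.445%, 0.279%, 1.25% and 0.527% after thinning, at median depths of 12730, 10088, 11579 and 12061 UMIs, well below the share in pericytes.

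*Socs3*, the feedback inhibitor of cytokine signaling through JAK and STAT3, stood at 224, 676, 265 and 684 CPM. It rose 3.02-fold (2.42 to 3.79) in young and 2.58-fold (2.06 to 3.25) in aged pericytes, with nearly the same end level at both ages. *Sbno2*, another cytokine-responsive gene, rose 2.71-fold and 2.06-fold. *Stat2*, a transcription factor downstream of type I interferon, was 37.0, 146, 50.7 and 123 CPM and rose 3.96-fold (2.32 to 7.13) and 2.42-fold (1.41 to 4.23). *Tnfrsf1a*, the TNF receptor 1, rose 2.23-fold and 2.36-fold.

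Other single genes also rose at both ages. *Angptl4*, a secreted inhibitor of lipoprotein lipase, was 141, 402, 157 and 518 CPM. This corresponded to 2.84-fold (2.15 to 3.81) in young and 3.31-fold (2.50 to 4.43) in aged pericytes. *Pnpla2*, the triglyceride lipase ATGL, and *Glul*, glutamine synthetase, rose 2.34-fold and 2.30-fold in young and 2.87-fold and 2.90-fold in aged pericytes, and both were singled out after their values were seen. The cyclin-dependent kinase inhibitors *Cdkn1c* (p57) and *Cdkn1a* (p21) were 361, 741, 439 and 1039.5 CPM and 71.8, 250.01, 92.6 and 273 CPM, and both rose at both ages. The 3 cell-cycle genes of the list that could be measured did not pass the fold in any comparison.

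*Spp1*, which encodes the matrix-associated cytokine osteopontin, was 1292, 4004, 3258 and 7915 CPM. It rose by a log2 ratio of 1.63 with ventilation in young and 1.28 in aged pericytes, and the aged nonventilated level was 2.52-fold (2.29 to 2.78) above the young one. The 4 libraries thus lay in the order young nonventilated, aged nonventilated, young ventilated and aged ventilated, with intervals that did not overlap. A *Spp1* UMI was found in 58.8%, 62.1%, 82.1% and 90.6% of pericytes and in 47.6%, 58.9%, 82.5% and 88.9% after thinning, compared with 21.4%, 30.2%, 21.5% and 23.5% and 8.35%, 21.1%, 11.9% and 12.8% of immune cells. The other kept barcodes had 68.8, 347, 130.1 and 274 CPM.

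Of the 28 shared falls, *Rgs6*, a regulator that shortens G protein signals, had the largest ratio in aged pericytes, and *Ecm2*, a matrix protein, in young ones. *Rgs6* was 931, 283, 679 and 42.9 CPM. It fell 3.28-fold (2.72 to 3.98) in young and 15.8-fold (9.28 to 29.3) in aged pericytes, and its aged ventilated level was 6.60-fold (3.82 to 12.4) below the young ventilated one. The share of pericytes with a UMI went from 68.8% to 48.3% in young and from 67.2% to 18.9% in aged libraries (61.9% to 31.5% and 52.6% to 8.89% after thinning), against at most 3.80% of immune cells.

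Genes through which pericytes exchange signals with the endothelium changed in both directions. Of 27 measured at each age, 6 rose and 4 fell in young pericytes, and 1 rose and 4 fell in aged ones. The falls are given first. *Tgfb2*, a TGF-β ligand, was 346, 102, 304 and 64.4 CPM and fell 3.39-fold (2.48 to 4.70) and 4.72-fold (2.97 to 7.88). *Angpt2*, the context-dependent antagonist of Tie2, was 150.1, 55.6, 110.2 and 30.7 CPM and fell 2.70-fold (1.74 to 4.30) and 3.59-fold (1.80 to 7.95). *Cdh2*, N-cadherin, fell 2.41-fold and 2.12-fold. *Angpt1*, the Tie2 agonist that stabilizes vessels, was 1633, 706, 1269.8 and 846 CPM. It fell 2.31-fold (2.04 to 2.63) in young pericytes, while the 1.50-fold (1.30 to 1.74) lower level in aged pericytes did not reach 2-fold. The interval of each of these ratios left out 1.

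The list had 47 members in all. In young pericytes the shares that rose and fell were 22.2% and 14.8%, against 5.64% and 3.56% of all genes, with a median log2 ratio of -0.06. In aged pericytes they were 3.70% and 14.8%, against 4.83% and 4.67%. Of 25 genes that reached 50 CPM in the young nonventilated library 4 rose, and *Tgfb1* and *Skil* were below it. Of 25 that reached it in the aged ventilated library 3 fell. The 6 young rises were *Gja4*, the TGF-β ligand *Tgfb1*, the BMP-responsive genes *Id1* and *Id3*, the SMAD corepressor *Skil* and the Notch effector *Heyl*. In aged pericytes *Gja4* alone rose, and *Tgfb2*, *Angpt2*, *Cdh2* and *Tgfbr1* fell. Without pericytes carrying fibroblast genes 5 genes rose in young pericytes, and without the cell holding most UMIs 5 fell in aged ones. *Heyl* was 128, 298, 201 and 126 CPM and *Skil* was 39.1, 128, 99.2 and 49.1 CPM, each highest in the young ventilated library. *Id1* was 65.2, 219, 130.1 and 181 CPM and *Id3* was 613, 1396, 774 and 1098 CPM.

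Several further shared falls were singled out after their values were seen. *Hmgcs1*, an enzyme of cholesterol synthesis, was 84.8, 37.0, 112 and 49.1 CPM. *Irs1*, the insulin receptor substrate, was 124, 48.2, 141 and 33.7 CPM, and *Amotl2*, an angiomotin family member at cell junctions, was 137, 51.9, 88.2 and 27.6 CPM. In each of these 3 genes both ventilated libraries were below both nonventilated ones. *Ecm2*, *Col8a1* and *Dmd*, which encode a matrix protein, a collagen VIII chain and dystrophin, fell 5.24-fold, 2.32-fold and 2.66-fold in young and 3.53-fold, 2.89-fold and 2.14-fold in aged pericytes. Some genes that set pericytes apart from the other barcodes were among the falls as well. *Tmem200a* was 422, 107, 276 and 107 CPM and fell at both ages, and *Gap43* and *Vsnl1* fell 2.65-fold and 2.45-fold in young pericytes, with aged levels 1.79-fold and 1.52-fold lower that did not pass the fold.

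**Figure D3:**
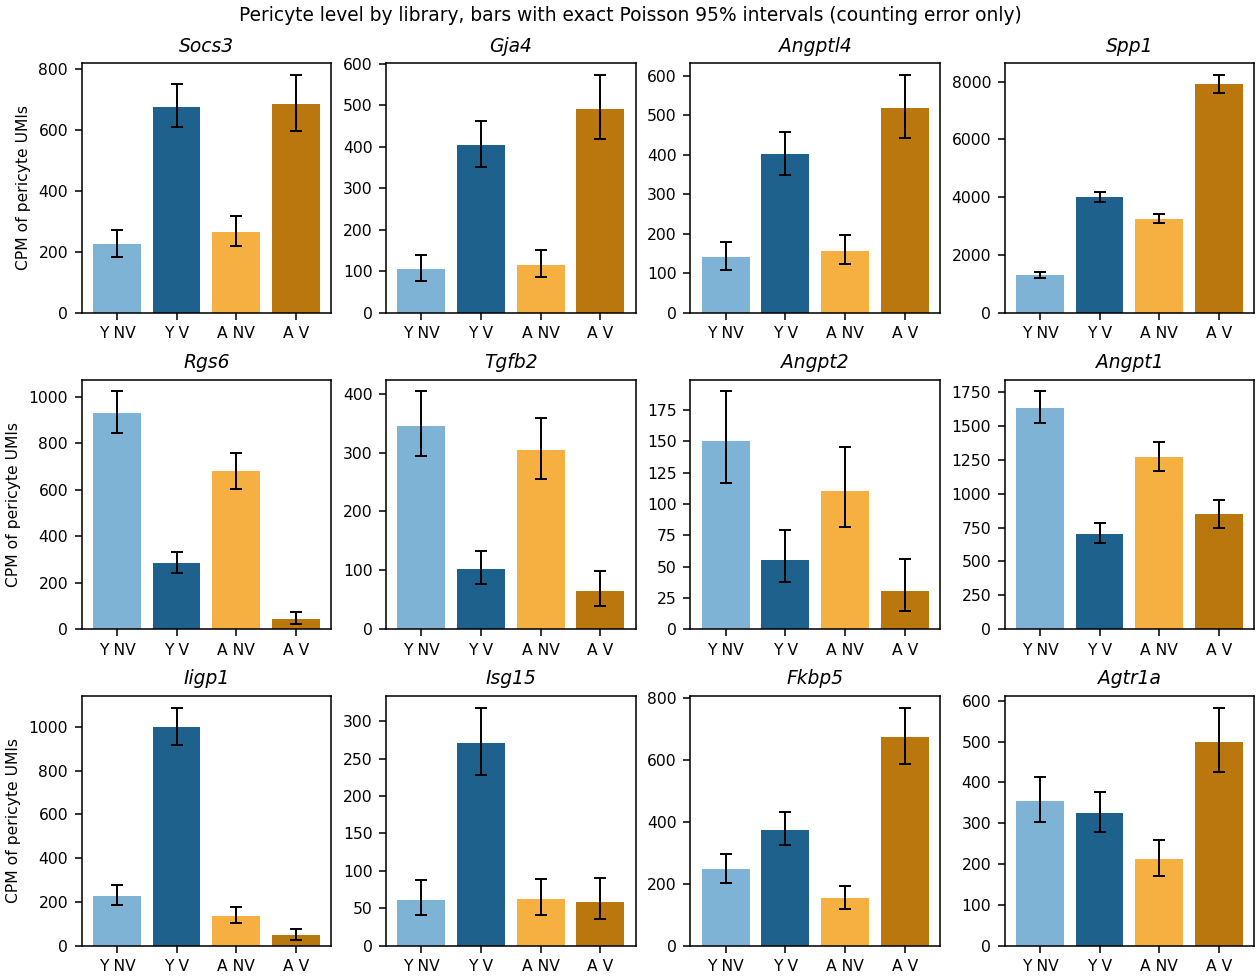
Pericyte CPM of 12 genes in the 4 libraries (Y, young; A, aged; NV, nonventilated; V, ventilated), as bars from 0 with exact Poisson 95% intervals that cover counting error only. The first row rose and *Rgs6*, *Tgfb2* and *Angpt2* fell at both ages, while *Iigp1* and *Isg15* were high in the young ventilated library alone and *Fkbp5* and *Agtr1a* were highest in the aged ventilated one.

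Levels in the rest of the library were set beside these changes, since free RNA reaches each droplet. Of the 27 shared rises, 18 were higher in pericytes than in the other barcodes of both ventilated libraries. The exceptions included *Mt1*, *Mt2*, *Flt1*, *Cdkn1a* and *Tnfrsf1a*. Of the 28 shared falls, 26 were higher in pericytes than in the other barcodes of both nonventilated libraries. Among all 211 young rises, 95 were higher in pericytes than in the other barcodes of the ventilated library, compared with 159 of the 182 aged rises. Whether free RNA had a part in the remaining rises was not tested.

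Some interferon response genes rose in young pericytes. Of 48 listed genes 18 were measured, and 9 rose and 0 fell (50.0%, against 5.64% of all measured genes), with a median log2 ratio of 1.00. In aged pericytes 3 of 14 rose (*Stat2*, *Ifitm2* and *Gbp7*) and 1 fell, with a median of 0.28. The aged shares were 21.4% and 7.14%, against 4.83% and 4.67% of all measured genes. *Iigp1*, an interferon-induced GTPase, was 228, 998, 137 and 46.0 CPM. It rose 4.37-fold (3.54 to 5.44) in young pericytes and fell 2.97-fold (1.67 to 5.62) in aged pericytes, which left the aged ventilated level 21.7-fold (13.0 to 39.0) below the young ventilated one. *Isg15*, the interferon-induced ubiquitin-like modifier, was 60.9, 270.4, 61.7 and 58.3 CPM, and *Ifit3* gave 6, 58, 3 and 6 UMIs (its reads may be shared with the near-identical *Ifit3b*). Both were high in the young ventilated library alone. With barcodes of 2 markers included, the aged log2 ratio of *Iigp1* turned to 0.36. The other barcodes had 43.6, 503, 52.3 and 147 CPM of *Isg15*, above the pericytes in both ventilated libraries, and the part of free RNA in this rise was not tested.

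Transcription factors of the pathway were among the rises. *Irf1* was 124, 357, 227 and 199 CPM and rose 2.88-fold (2.14 to 3.95) in young pericytes, where *Irf9* rose 2.49-fold. *Irf8*, better known from myeloid cells, was 93.5, 250.01, 165 and 261 CPM. It rose 2.67-fold (1.88 to 3.86) in young pericytes, and its 1.58-fold (1.14 to 2.18) higher level in aged ventilated pericytes stayed under the fold. Without barcodes of over 5000 genes, or without those carrying fibroblast genes, 8 of 18 interferon genes rose in young pericytes, with a median of 0.95 in each case. Without the cell holding most UMIs of the gene, 7 rose in young and 2 in aged pericytes. Of the 18 measured genes, 15 reached 50 CPM in the young nonventilated library, and 6 of these rose. The other 3 were measured through the ventilated library alone. In aged pericytes 13 reached it in the nonventilated library, of which 2 rose, and *Iigp1*, the 1 fall, was below it in the ventilated one.

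Promoters of interferon genes were searched for GAAA followed by any 2 bases and a second GAAA, a spaced repeat of the kind bound by interferon regulatory factors, on both strands of the 250 bases before each start site. The sequences are from RefSeq (build GRCm38.p6), and 7 of the 9 genes that rose in young pericytes had one. The motif was found in 3 of them, against 2.98% of 32851 promoters of the same length. These 3 are shown 5′ to 3′ on the strand of the gene, with the matches in capitals. *Isg15* (chr4:156200819-156201068, minus strand) had 3 overlapping matches, the first at position -78 from the start site, *Ifit3* (chr19:34583279-34583528, plus strand) had 2 on the opposite strand, and *Stat2* (chr10:128270248-128270497, plus strand) had 1 on the opposite strand. A match is a description and not a shown binding site.
Isg15: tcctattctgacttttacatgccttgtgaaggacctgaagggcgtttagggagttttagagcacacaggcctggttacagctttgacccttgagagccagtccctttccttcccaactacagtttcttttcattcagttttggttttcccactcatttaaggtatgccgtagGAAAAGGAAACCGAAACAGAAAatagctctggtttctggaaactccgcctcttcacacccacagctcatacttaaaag
Ifit3: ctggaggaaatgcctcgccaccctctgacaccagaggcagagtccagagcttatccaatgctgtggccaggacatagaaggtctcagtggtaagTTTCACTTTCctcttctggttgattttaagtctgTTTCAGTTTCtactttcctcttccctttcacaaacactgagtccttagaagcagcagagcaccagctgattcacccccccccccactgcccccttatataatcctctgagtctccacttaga
Stat2: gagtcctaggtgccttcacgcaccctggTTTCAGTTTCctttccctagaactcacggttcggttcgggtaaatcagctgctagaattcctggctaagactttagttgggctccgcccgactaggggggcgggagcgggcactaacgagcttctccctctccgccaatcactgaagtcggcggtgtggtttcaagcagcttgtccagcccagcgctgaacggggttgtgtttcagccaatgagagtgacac

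Some inflammatory signaling genes rose in young pericytes, and their number depended on a few cells. Of 59 listed genes 21 were measured and 11 rose (52.4%, against 5.64% of all genes), with a median log2 ratio of 1.13. Each of the 21 reached 50 CPM in the young ventilated library but 15 in the nonventilated one, and 6 of these 15 rose. The other 5 rises were among genes measured through the ventilated library alone, which had to be higher there, so the share and the median over measured genes are a description only. In aged pericytes 2 of 16 rose (12.5%, against 4.83%), namely *Socs3* and *Tnfrsf1a*. A single gene, 1 of 16, fell (6.25%, against 4.67%), and the aged median was -0.18. Without barcodes of over 5000 genes, 8 of 20 rose in young pericytes (median 0.81), and 8 of 21 did without the cell holding most UMIs of the gene. Without pericytes carrying fibroblast genes, 4 of 16 rose: *Cxcl1*, *Socs3*, *Osmr* and *Tnfrsf1a* (median 0.48). In aged pericytes 2 rose and 0 fell under either limit on barcodes. Several of the others had most of their young ventilated UMIs in 1 cell. *Il6* gave 1, 59, 16 and 1 UMIs, with 96.6% of those in the young ventilated library from 1 cell, and for *Cxcl14*, a chemokine, the share was 66.7%. *Saa3*, an acute-phase gene outside the list, gave 0, 154, 0 and 2 UMIs, with 89.0% of the young ventilated ones from 1 cell.

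The 4 genes that still rose were a chemokine, 2 receptors and the feedback inhibitor described above. *Cxcl1*, a neutrophil chemokine, was 187, 552, 251 and 309.7 CPM and rose 2.95-fold (2.31 to 3.80) in young pericytes, above the 39.0, 210.1, 111 and 94.7 CPM of the other barcodes. *Osmr*, the oncostatin M receptor subunit, was 130.5, 309, 119 and 98.1 CPM and rose 2.37-fold (1.75 to 3.24). *Icam1*, the leukocyte adhesion molecule, rose 7.88-fold (3.80 to 18.9) to 137 CPM, but stood far below the 520 CPM of the other barcodes of that library, and its part from free RNA was not tested. Among the 11 young rises, 10 had a RefSeq promoter, and TTCNNNGAA, the half-site pair that STAT factors bind, was found in 4 (*Cxcl14*, *Icam1*, *Socs3* and *Tnfrsf1a*), against 7.02% of all promoters. It was also in 2 of 7 interferon and 2 of 7 antioxidant promoters and in 0 of 6 of the glucocorticoid genes that rose in aged pericytes. This motif and the GAAA repeat were added after the data had been seen. The 6 other motifs searched were each in 0 to 2 promoters of any of these lists, against 1.55% to 16.6% of all promoters. They were the antioxidant core TGACNNNGC, the AP-1 motif TGANTCA, the cyclic AMP response element TGACGTCA, the heat shock pair GAANNTTC, the E-box CACGTG and the hypoxia core ACGTG, which also matches within the E-box. The promoter of *Socs3* (chr11:117969367-117969616, minus strand) is shown because this gene rose at both ages, with its single match, at position -154, in capitals.
Socs3: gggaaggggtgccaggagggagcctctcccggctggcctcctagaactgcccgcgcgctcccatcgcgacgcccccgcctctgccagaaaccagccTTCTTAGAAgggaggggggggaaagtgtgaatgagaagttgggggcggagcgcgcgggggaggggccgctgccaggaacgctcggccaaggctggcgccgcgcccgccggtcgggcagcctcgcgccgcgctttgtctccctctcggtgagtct

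Some glucocorticoid-responsive genes rose at each age. In young pericytes 6 of 18 measured genes rose (33.3%, against 5.64% of all genes, median 0.63), and in aged pericytes 8 of 17 rose (47.1%, against 4.83% of all genes, median 0.90), with none falling. *Angptl4*, *Cdkn1c*, *Mt1* and *Mt2* rose at both ages. Of the 16 genes that reached 50 CPM in the nonventilated library at each age, 5 rose in young and 7 in aged pericytes. *Fkbp5*, a chaperone that limits glucocorticoid receptor activity, was 246, 374, 152 and 672 CPM. It rose 4.42-fold (3.35 to 5.87) in aged pericytes, and its young ratio of 1.52-fold (1.20 to 1.93) stayed under the fold. *Hif3a*, a hypoxia-inducible factor family member, was 8.70, 25.9, 33.1 and 113 CPM. It rose 3.43-fold (1.84 to 6.73) in aged pericytes and was 4.38-fold (2.31 to 8.76) higher in aged than in young ventilated pericytes. *Sult1a1*, a sulfotransferase, and *Lpin1*, a phosphatidate phosphatase, rose 3.26-fold and 2.26-fold in aged pericytes. In both alternatives that leave out deep or fibroblast-gene barcodes, 5 genes rose in young and 8 in aged pericytes, and without the cell holding most UMIs of the gene 9 rose in the aged.

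Antioxidant genes were among the rises at both ages. In young pericytes 8 of 16 measured genes rose (50.0%, against 5.64% of all genes, median 0.91), and in aged pericytes 4 of 17 (23.5%, against 4.83%, median 0.27). All 16 young genes and 15 of the 17 aged ones reached 50 CPM in the nonventilated library, of which 8 and 3 rose. *Gpx3*, the secreted glutathione peroxidase, was 341, 757, 425 and 926 CPM and rose 2.22-fold (1.84 to 2.68) and 2.18-fold (1.81 to 2.62). *Gclc* and *Gclm*, the subunits of the enzyme that starts glutathione synthesis, were 63.1, 233, 104 and 184 CPM and 21.7, 66.7, 26.5 and 82.8 CPM. *Txnrd1*, a thioredoxin reductase, was 52.2, 157, 74.95 and 98.1 CPM. Without deep barcodes, or without the cell holding most UMIs of the gene, 6 genes rose in young pericytes, and without barcodes carrying fibroblast genes 5 rose, whereas the aged count was 4 in each case. The difference between ages was not tested.

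The metallothioneins *Mt1* and *Mt2*, which bind zinc and copper, had the highest ratios among the measured antioxidant genes in young pericytes. *Mt1* was 607, 4729.9, 624 and 1601 CPM and rose 7.80-fold (6.89 to 8.85) and 2.57-fold (2.22 to 2.98). *Mt2* was 107, 1028, 86.0 and 251 CPM and rose 9.65-fold (7.20 to 13.2) and 2.92-fold (1.97 to 4.40). The other barcodes moved with them, at 725, 7422, 950.4 and 6246 CPM for *Mt1* and 108, 1986, 160.2 and 1549 CPM for *Mt2*, above the pericytes in both ventilated libraries, and 1 young ventilated cell held 32.0% of the *Mt1* and 47.7% of the *Mt2* UMIs. The part of free RNA in these rises was not tested. The *Mt2* promoter (chr8:94172368-94172617, plus strand) is shown for its match, in capitals, to TGACNNNGC, the antioxidant response core, which 2 of the 7 antioxidant promoters and 10.2% of all promoters held. The same bases also match the AP-1 motif TGANTCA, which 1 of the 7 antioxidant promoters and 6.75% of all promoters held.
Mt2: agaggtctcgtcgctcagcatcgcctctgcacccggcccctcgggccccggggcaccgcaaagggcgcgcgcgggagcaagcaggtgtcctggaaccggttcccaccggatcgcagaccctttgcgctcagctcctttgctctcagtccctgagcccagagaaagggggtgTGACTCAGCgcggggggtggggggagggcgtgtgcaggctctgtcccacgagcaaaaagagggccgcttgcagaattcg

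Matrix and protease genes changed in both directions. In young pericytes 7 of 35 measured genes rose and 1 fell (20.0% and 2.86%, against 5.64% and 3.56% of all genes), with a median log2 ratio of 0.10. In aged pericytes 1 of 34 rose and 6 fell (2.94% and 17.6%, against 4.83% and 4.67%), with a median of -0.17, and the difference between ages was not tested. Of 29 that reached 50 CPM in the young nonventilated library 4 rose, of 33 in the aged nonventilated one 0 rose, and of 30 in the aged ventilated one 4 fell. Without barcodes of over 5000 genes 6 rose in young and 5 fell in aged pericytes. Without those carrying fibroblast genes 5 rose in young pericytes, and 2 rose and 2 fell in aged ones. Without the cell holding most UMIs of the gene 5 fell in aged pericytes. *Timp3*, a matrix-bound metalloproteinase inhibitor, was 672, 2206, 891 and 1567 CPM and rose 3.28-fold (2.89 to 3.73) in young pericytes. *Thbs1*, thrombospondin 1, was 73.9, 654, 104 and 3.07 CPM, with 1 UMI in the aged ventilated library, and fell 33.8-fold (5.78 to 1363) there after a rise of 8.84-fold (6.21 to 13.0) in young pericytes. *Thbs1* was more abundant in the other barcodes than in pericytes in each of the 4 libraries. With barcodes of 2 markers included, the aged log2 ratio of *Thbs1* turned to 0.42. *Lamc3*, a laminin γ chain of basement membranes, was 28.3, 66.7, 15.4 and 126 CPM and was the 1 matrix gene that rose in aged pericytes, 8.15-fold (3.62 to 21.5).

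Immediate early genes, which respond within minutes to many stimuli, also changed in both directions. Of 24 measured in young pericytes 5 rose and 1 fell (20.8% and 4.17%, against 5.64% and 3.56% of all genes), and of 23 in aged pericytes 0 rose and 5 fell (21.7%, against 4.67% of all genes). Of 23 that reached 50 CPM in the young nonventilated library 4 rose, and of 22 in the aged ventilated one 4 fell. Without barcodes of over 5000 genes 4 rose in young pericytes, without those carrying fibroblast genes 4 fell in aged ones, and without the cell holding most UMIs of the gene 0 fell in young ones. *Nr4a1*, an orphan nuclear receptor induced by many stimuli, was 415, 506, 474 and 196 CPM and fell 2.42-fold (1.82 to 3.24) in aged pericytes. *Maff*, a small MAF protein, was 39.1, 135, 92.6 and 33.7 CPM. It rose 3.45-fold (2.04 to 6.15) in young and fell 2.74-fold (1.39 to 5.91) in aged pericytes. *Ier3* was 135, 500.0, 137 and 156 CPM and rose 3.71-fold (2.80 to 4.97) in young pericytes. Of the targets of YAP, a stretch-responsive coactivator, 1 of 18 rose and 1 fell in young pericytes. These shares were 5.56% each, against 5.64% and 3.56% of all genes, with a median log2 ratio of -0.16. In aged pericytes 0 of 17 rose and 4 fell (23.5%, against 4.67% of all genes), with a median of -0.59. Without barcodes carrying fibroblast genes 3 of 15 fell. Of 14 that reached 50 CPM in the aged ventilated library 2 fell. *Ccn1*, the matricellular YAP target, was 204, 202, 179 and 64.4 CPM and fell 2.77-fold (1.70 to 4.72) in aged pericytes.

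Few genes for contraction and tone passed the fold. In young pericytes 1 of 30 rose and 1 fell, and in aged pericytes 1 rose and 3 fell, shares near the background of all genes except for the aged falls (10.0%, against 4.67%). In young pericytes 2 genes rose under each of the 3 checks. Phosphodiesterase genes were among those that fell. *Pde5a*, which degrades cGMP and so opposes relaxation by nitric oxide, was 5449.6, 2170.5, 4532 and 2453 CPM. It fell 2.51-fold (2.34 to 2.69) in young pericytes, and its aged ratio of 1.85-fold (1.70 to 2.01) lower did not pass the fold. *Pde3a* was 1514, 1052, 1587 and 705 CPM and fell 2.25-fold (1.94 to 2.62) in aged pericytes. *Prkg1*, the cGMP-dependent kinase, was 9322, 6743, 8324 and 4741 CPM, lower in both ventilated libraries by under 2-fold. *Gucy1a1*, a subunit of the nitric oxide receptor, was 3423, 1933, 2928 and 2886 CPM. In the smooth muscle list, 1 of 7 measured genes rose and 3 fell in young pericytes (14.3% and 42.9%, against 5.64% and 3.56%). Of its 8 measured in aged pericytes 0 rose and 3 fell (37.5%, against 4.67%). The young rise was *Tagln*, the young falls were *Ckb*, *Npnt* and *Synpo2*, and the aged falls were *Npnt*, *Tagln* and *Lmod1*. *Npnt* is also in the alveolar fibroblast list. Of 6 that reached 50 CPM in the young ventilated library 2 fell, and of 8 in the aged ventilated one 3 fell. The checks without certain cells are not given for this list.

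*Agtr1a*, a receptor for a vasoconstrictor, was 354, 324, 212 and 499.8 CPM. It rose 2.36-fold (1.82 to 3.07) in aged pericytes, with a young ratio of -0.13 on the log2 scale. *Ednra*, the endothelin receptor A, was 709, 1096, 522 and 794 CPM, higher in ventilated libraries by 1.55-fold and 1.52-fold, both under the fold. *Tagln*, the actin-binding protein SM22, was 69.6, 217, 181 and 58.3 CPM, with opposite changes at the 2 ages. Of 22 ion channel genes 12 were measured in young and 11 in aged pericytes, and none passed the fold in any of the 4 comparisons, although 1 fell in young pericytes without the cell holding most UMIs of the gene. *Kcnn2*, a calcium-activated potassium channel subunit outside that list, was one of the shared falls. It was 189, 50.0, 110.2 and 27.6 CPM and fell 3.78-fold (2.43 to 6.06) in young and 3.99-fold (1.94 to 9.24) in aged pericytes. The 79 ribosomal protein genes and the 12 mitochondrially encoded RNAs gave no call.

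**Figure D4:**
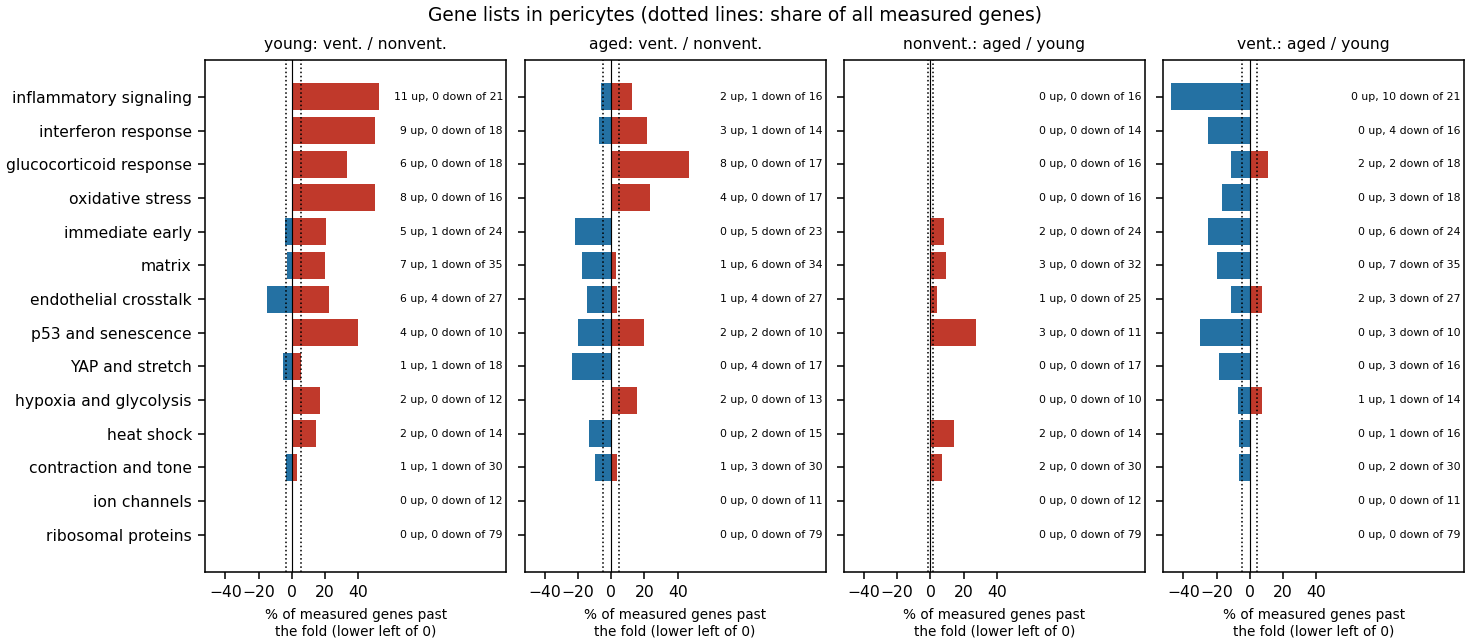
Share of the measured genes of each list (x axis, %) that rose (red, right of 0) or fell (blue, left of 0) in each of the 4 comparisons, with counts at the right and dotted lines at the shares of all measured genes. Of the 14 lists, in the young ventilation panel the inflammatory (11 of 21), interferon (9 of 18) and oxidative stress (8 of 16) lists reach farthest right, in the aged panel the glucocorticoid list (8 of 17), and the ribosomal protein and ion channel rows are empty.

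The second question was whether pericytes of naive aged mice differed from those of naive young mice. Of 3676 measured genes, 65 were higher (1.77%) and 55 lower (1.5%) in aged pericytes, 3.26% in either direction. Without the cell holding most UMIs, 44 of the 65 and 45 of the 55 were still at least 2-fold. Some of the largest differences were in genes with many UMIs in 1 cell. *Apoe*, *Inmt* and *Mgp*, which are fibroblast or macrophage genes, were 30.4, 196, 355 and 15.3 CPM, 28.3, 77.8, 176 and 12.3 CPM and 67.4, 589, 831 and 58.3 CPM, and 95.03%, 91.2% and 53.3% of their UMIs in the aged nonventilated library came from 1 cell. Without the cell holding most UMIs, the log2 ratio of *Mgp* went from 3.58 to 3.17, whereas without the pericytes carrying fibroblast genes it was -0.18.

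Among the largest falls were *Gpc6*, a glypican, and *Fam129a*, of whose UMIs in the young nonventilated library 1 cell held 49.1% and 65.6%. Other genes separated the ages in naive lungs with UMIs spread over many cells. *Spp1* is described above. The noncoding RNA *4930542D17Rik* was 50.0, 241, 216 and 273 CPM, and *C1qtnf2*, a secreted C1q/TNF-related protein, was 26.1, 24.1, 86.0 and 61.3 CPM. They were 4.32-fold (2.72 to 7.13) and 3.29-fold (1.69 to 6.91) higher in aged than in young nonventilated pericytes. *Homer1*, a synaptic scaffold protein, was 107, 98.2, 289 and 46.0 CPM, highest in the aged nonventilated library, but with barcodes of 2 markers included its log2 ratio was -0.72. Lower in aged nonventilated pericytes were *Il15*, a lymphocyte cytokine, at 89.2, 46.3, 24.2 and 135 CPM, *Cyp7b1*, an oxysterol hydroxylase, at 144, 122, 50.7 and 67.5 CPM, and *Zdhhc1*, a palmitoyltransferase, at 80.5, 44.4, 26.5 and 52.1 CPM. None of the measured genes of the inflammatory (16), interferon (14), oxidative (16) or glucocorticoid (16) lists passed the fold between the naive groups. Of the other lists, 2 of 14 heat shock genes (*Hspa1a* and *Hspa1b*, whose reads may be shared), 2 of 24 immediate early genes (*Maff* and *Atf3*) and 3 of 32 matrix genes were higher in aged pericytes (14.3%, 8.33% and 9.38%, against 1.77% of all genes), and 0 were lower. *Maff* and the 3 matrix genes were below 50 CPM in the young library. Without pericytes carrying fibroblast genes 0 heat shock, 1 immediate early and 1 matrix gene were higher. Of 11 measured p53 and senescence genes 3 were higher in aged pericytes (27.3%, against 1.77% of all genes), *Igfbp7* and *Gadd45b* among them. Each of the 3 was below 50 CPM in the young library, and 52.6% of the *Igfbp7* UMIs came from 1 cell. Without pericytes carrying fibroblast genes, 1 of 9 was higher, and the log2 ratio of *Igfbp7* was -1.21.

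Finally, ventilated aged and ventilated young pericytes were compared. Each of these libraries also enters a ventilation comparison above, so the values are not independent of them. Of 3830 measured genes, 156 were higher (4.07%) and 187 lower (4.88%) in aged pericytes, 8.96% in either direction. With median-of-ratios scaling 89 were higher and 234 lower. The lower genes included 10 of 21 inflammatory, 4 of 16 interferon, 6 of 24 immediate early and 7 of 35 matrix genes, with no rise in these lists. Among members that reached 50 CPM in the aged ventilated library, 5 of 15, 2 of 13, 5 of 23 and 5 of 30 were lower. Without barcodes of over 5000 genes, without the cell holding most UMIs of the gene, and without pericytes carrying fibroblast genes, 7 of 19, 6 of 21 and 2 of 15 inflammatory genes were lower. *Cd44*, the hyaluronan receptor, was 104, 222, 119 and 18.4 CPM, 12.1-fold (5.39 to 33.6) lower in aged ventilated pericytes. *Osmr* and *Icam1* were 3.15-fold and 4.97-fold lower.

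Genes higher in aged ventilated pericytes were mostly at levels above the rest of the library, 141 of 156, compared with 84 of the 187 lower genes in the young ventilated library. *Arhgap15*, a Rac GTPase-activating protein, was 200.1, 24.1, 88.2 and 126 CPM and fell 8.31-fold (4.63 to 16.2) in young pericytes, which left the aged ventilated level 5.22-fold (2.74 to 10.6) higher. *Etl4* was 794, 178, 831 and 537 CPM and *Cdk17*, a cyclin-dependent kinase, was 137, 98.2, 79.4 and 328 CPM. The aged ventilated library also had the highest levels of *Lmcd1*, a LIM protein, at 696, 1065, 472 and 1806 CPM, of *Wfdc8* at 109, 124, 52.9 and 261 CPM, and of *Slc29a1*, the adenosine transporter ENT1, at 54.4, 85.2, 28.7 and 123 CPM. *Il15*, lowest in aged nonventilated pericytes, rose 5.56-fold (2.83 to 11.9) with ventilation in the aged.

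Values in 3 neighboring classes were set beside those of pericytes with no test between classes. There were 116, 85, 85 and 49 smooth muscle cells and myofibroblasts, 453, 503, 444 and 316 alveolar fibroblasts, and 1012, 948, 851 and 663 endothelial cells. Of the smooth muscle cells and myofibroblasts, 39, 26, 27 and 12 also had at least 3 of the pericyte rule genes. That class was thus not fully separate from barcodes with pericyte markers. In young libraries 7.15%, 10.8% and 9.15% of their measured genes rose, compared with 5.64% in pericytes, and 6.54%, 9.83% and 8.96% fell, compared with 3.56%. In aged libraries 3.00%, 4.84% and 3.84% rose, compared with 4.83%, and 5.38%, 5.59% and 5.27% fell, compared with 4.67%. Between naive ages 1.53%, 0.773% and 0.206% were higher in the aged, compared with 1.77%, and 0.807%, 0.0573% and 0.0516% lower, compared with 1.50%. Between ventilated ages 3.12%, 0.852% and 0.500% were higher, compared with 4.07%, and 4.10%, 1.70% and 2.70% lower, compared with 4.88%. Pericytes had 326103 to 539968 UMIs a library and endothelial cells 8355326 to 10531016. Shares were not compared at equal depth. The log2 ratio of *Gja4* was 1.93 and 2.08 in young and aged pericytes, 0.52 and 0.32 in smooth muscle cells and myofibroblasts, and -1.30 and -1.04 in endothelial cells, where the gene went from 91.3 to 37.1 CPM and from 94.9 to 46.0 CPM. For *Rgs6* the ratios were -1.71 and -3.89 in pericytes, -1.25 and -1.47 in smooth muscle cells and myofibroblasts, and 0.27 and -0.09 in endothelial cells. Pericyte *Angpt2* had -1.41 and -1.74, whereas the endothelial values were 1.43 and -0.21.

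Some pericyte responses were on the same side in each class. *Angptl4* had log2 ratios of 1.49 and 1.72 in pericytes and of 1.30 to 1.57 in the other classes of the young and 1.16 to 2.82 in those of the aged. *Mt1* had 2.96 and 1.36 in pericytes, lower than the 5.005 and 4.43 of endothelial cells. *Fkbp5* was higher after ventilation in aged libraries by 2.13 in pericytes, 2.05 in smooth muscle cells and myofibroblasts, 1.66 in alveolar fibroblasts and 1.69 in endothelial cells. *Thbs1*, which fell in aged pericytes, had positive aged ratios in the other 3 classes, of 0.38 to 1.26.

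**Figure D5:**
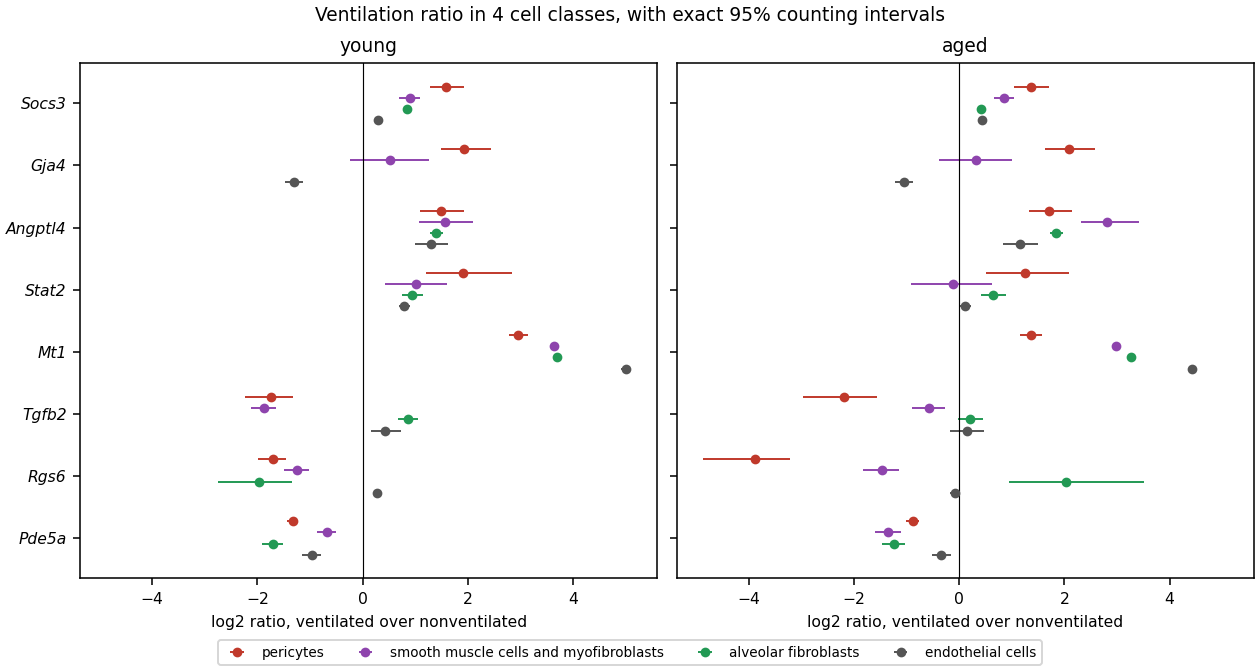
Log2 ratio of ventilated over nonventilated libraries (x axis) for 8 genes in pericytes, smooth muscle cells and myofibroblasts, alveolar fibroblasts and endothelial cells, young at left and aged at right, with exact 95% counting intervals as horizontal lines; classes with almost no UMIs of a gene are left out. *Gja4* lies right of 0 in pericytes and left of 0 in endothelial cells at both ages, and *Mt1* lies right of 0 in each class.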

How the data were processed

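Per the labels and the study's methods, left lobes were minced and digested with Liberase TM and DNase I. The study's methods add that cells were frozen, stored and thawed, and that samples of low viability were left out before pooling. Libraries were made with a 10x Chromium 3′ kit, and the authors counted UMIs with Cell Ranger 7.0.0 against a mouse mm10 reference. The deposited values were raw UMI counts of 32285 genes per barcode, unnormalized. Pericytes and gene lists were chosen with earlier results of these data known.

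UMIs were summed over the pericytes of each library and divided by their total (CPM), and log2 ratios were taken with 1 UMI added to each sum. Intervals were exact (95%; Poisson for a level, conditional binomial for a ratio, Clopper-Pearson for a share). Since 3 mice were pooled in 1 library a group, no test was run. The counting steps were checked on simulated Poisson sums, which cannot show how they behave when 1 cell holds most UMIs of a gene. Named genes were the 10 largest rises and falls of each comparison with a UMI in at least 10% of cells, list members, the 6 rule genes, independent markers and the 20 genes most particular to pericytes. Further genes shared by both ages or otherwise singled out were chosen after their values were seen (*Spp1*, *Hmgcs1*, *Irs1*, *Col8a1*, *Dmd*, *Amotl2*, *Sbno2*, *Glul*, *Pnpla2*, *Kcnn2*, *Homer1*, *Lmcd1* and *Etl4* where no rule covers them). The motifs TTCNNNGAA and the spaced GAAA repeat were also added after seeing the data, as were the alternatives with 1 UMI of *Ptprc* or *Cdh5*, without fibroblast genes and without the cell holding most UMIs. Thinning drew 2000 UMIs per cell with a fixed seed, and cells with fewer UMIs were left out. Neighboring classes were chosen by the contractile genes, by alveolar fibroblast genes, or by *Cdh5* and endothelial genes. Only the fibroblast and endothelial classes were limited to fewer than 3 pericyte rule genes. Some genes covered by the naming rule are not reported here. Tools were Python 3.11.15, numpy 2.4.6, scipy 1.17.1, pandas 2.3.3 and matplotlib 3.10.9.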

Additional observations from a re-analysis of the deposited data

Results flagged for a closer look

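Of the 21 genes that rose with ventilation in the pericytes of one age and fell in those of the other, 13 are named here. With 1 library a group the difference was not tested for any of them. Values are log2 ratios of ventilated over nonventilated pericytes. In matrix and adhesion genes, *Thbs1* had 3.11 in young and -4.11 in aged pericytes, *Adamts1*, a secreted protease, had 1.15 and -1.42, and *Cd44* had 1.07 and -2.50. *Tagln*, the actin-binding protein, had 1.61 and -1.58.

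Among stress and interferon genes, *Iigp1* had 2.12 in young and -1.50 in aged pericytes, *Maff* had 1.73 and -1.37, and *Hspa1a*, a heat shock protein gene whose reads may be shared with *Hspa1b*, had 1.03 and -1.09. Genes of fibroblasts or other cells also had wide gaps, though *Thbs1* had the widest of those named. *Mgp* had 3.09 and -3.76, *Apoe* had 2.60 and -4.28, *Inmt* had 1.39 and -3.54, and *Igfbp7* had 2.70 and -3.51. Over 50% of the UMIs of *Mgp*, *Apoe* and *Igfbp7* in the young ventilated library, and of these 3 and *Inmt* in the aged nonventilated one, came from 1 cell each. Moving the other way were *Fam168a*, with -1.79 in young and 1.13 in aged pericytes, and *Gm14964*, with -2.15 and 1.08. Of the 21 genes, 15 kept 2-fold changes in opposite directions without the cell holding most UMIs. *Mgp* and *Igfbp7* are among these 15. Leaving out the pericytes carrying fibroblast genes, however, *Mgp* had -0.15 in young and 0.93 in aged pericytes, and *Igfbp7* had 0.63 in aged ones.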

How the results depend on the processing

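No paired analysis was possible because each group had 1 library. Thinning each cell to 2000 UMIs gave fewer genes past the fold: 134 higher and 83 lower with ventilation in young pericytes, 88 and 108 in aged, 32 and 36 between ages without ventilation, and 42 and 124 with it. Fewer cells and fewer UMIs enter that comparison, since cells under 2000 UMIs were left out. A minimum of 10 CPM and no minimum gave the same counts as each other, 399 higher and 242 lower in young, 274 lower in aged, 141 and 120 between ages without ventilation, and 339 lower with it, since more genes were tested. Median-of-ratios scaling gave 89 higher genes in aged ventilated pericytes. When pericytes with a UMI of *Pecam1*, *Epcam*, *Sftpc*, *Lyz2* or *Col13a1* were left out, the shares were 1.94%, 1.77%, 1.29% and 1.14% and 86 genes were lower in naive aged pericytes. With none of the 7 contractile genes allowed, the shares were 0.170%, 0.1803%, 0.198% and 0.196%, and genes were not compared in the 22 cells left.

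Of the log2 ratios of named genes, 40 values changed sign, and the cause was not tested. In young ventilation, leaving out those 5 lineage genes gave *Apoe* -0.14, *Cxcl14* -1.12, *Inmt* -0.90 and *Mgp* -0.59, leaving out fibroblast-gene cells gave *Apoe* -0.060, *Cxcl14* -0.79, *Il6* -0.060 and *Mgp* -0.15, and *Il6* was -0.24 with at least 4 markers. In aged ventilation the fibroblast criterion gave *Apoe* 0.086, *Igfbp7* 0.63 and *Mgp* 0.93. With 2 markers allowed, young *Inmt* and *Mgp* were -2.89 and -1.36, and aged *Iigp1* and *Thbs1* 0.36 and 0.42. Between naive ages, the 5000-gene limit and the 93rd percentile of UMIs each gave *Apoe* -0.61 and *Inmt* -0.68, the lineage genes gave *Apoe* -0.37 and *Inmt* -0.84, the fibroblast criterion gave *Adamts4* -1.81, *Igfbp7* -1.21 and *Mgp* -0.18, 2 markers gave *Homer1* -0.72, *Inmt* -0.013 and *Mgp* -0.46, and without the top cell *Adamts4* was -1.47 and *Apoe* -0.27. Between ventilated ages, thinning gave *Ldha* 0.11, 2 markers gave *Apoe* 0.55 and *Mgp* 0.13, 4 markers gave *Il6* 0.63, the lineage genes gave *Il6* 0.79, *Mgp* 0.21 and *Mt2* 0.52, and the fibroblast criterion gave *Apoe* 0.26, *Il6* 0.48 and *Mgp* 0.90. Of the other values of named genes, 2521 stayed within the counting interval of the reported value and 351 moved beyond it without changing sign.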

Other observations

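Several further gene lists were examined in pericytes. Of the hypoxia and glycolysis genes, 2 of 12 rose with ventilation in young (16.7%, against 5.64% of all genes) and 2 of 13 in aged pericytes (15.4%, against 4.83%). Of the 10 genes that reached 50 CPM in the nonventilated library at each age, 1 rose in young and 0 in aged pericytes, and the other rises were in genes below it there. Without pericytes carrying fibroblast genes 0 rose in young pericytes, and without the cell holding most UMIs of the gene 1 fell in aged ones. In young pericytes these were *Ldha*, lactate dehydrogenase A, at 41.3, 189, 39.7 and 42.9 CPM, and *Hif1a*, the oxygen-regulated transcription factor, at 65.2, 181, 72.7 and 88.9 CPM, and in aged pericytes *Hif3a* and *Pfkfb3*, a regulator of glycolysis, the latter at 43.5, 61.1, 35.3 and 73.6 CPM. Heat shock genes gave 2 rises of 14 in young pericytes (14.3%, against 5.64%) and 2 falls of 15 in aged pericytes (13.3%, against 4.67%). Of 12 that reached 50 CPM in the young nonventilated library 1 rose, and of 12 in the aged ventilated one 1 fell. Without barcodes of over 5000 genes, or without those carrying fibroblast genes, 1 rose in young pericytes, and without the latter 1 fell in aged ones. *Hspb1*, a small heat shock protein, was 23.9, 224, 52.9 and 42.9 CPM, with 68.6% of its young ventilated UMIs in 1 cell. Of the integrated stress response genes, *Cebpb* rose among 6 in young pericytes (16.7%, against 5.64%). *Slc3a2*, which was below 50 CPM before ventilation, rose among 7 in aged pericytes (14.3%, against 4.83%). No circadian gene passed the fold with ventilation. Between ages, *Dbp*, a clock output gene, was 50.0, 38.9, 110.2 and 58.3 CPM and 2.20-fold (1.32 to 3.78) higher in aged than in young nonventilated pericytes, and *Nr1d1*, a clock repressor, was 2.07-fold (1.27 to 3.40) higher in aged than in young ventilated ones. The hour at which lungs were taken was not among the labels used here.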
